A study of Mus musculus with 6 samples.

Results

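Secreted angiogenic ligands and the apelin pathway were followed at the RNA level in the spinal cord of newborn mice with spinal muscular atrophy (SMA), a motor neuron disease caused by loss of the SMN protein. The 10 genes, chosen by name, were Vegfa, Vegfb, Vegfc, Pgf, Flt4, Angpt1, Angpt2, Apln, Aplnr and Dll4, of 25576 genes listed over all libraries. All 10 were present in the files, and all 10 had a mean of at least 0.5 FPKM (fragments per kilobase of transcript, scaled by the mapped fragments of the library), the minimum used for testing. Bulk RNA-seq had been made from whole spinal cord at postnatal day 4 in the FVB strain, with 3 libraries for each group. SMA mice carried no functional mouse Smn gene and a human SMN2 transgene (mSmn-/-, hSMN22tg/0), and control mice had 1 working mouse Smn allele with the same transgene (mSmn+/-, hSMN22tg/0). Both groups therefore carried human SMN2, and the controls were heterozygous and not wild type; this is the severe, Taiwanese type of mouse model. The labels do not say whether the libraries of a group came from separate animals, and the study's methods can be read as repeat libraries of a single sample per group, so the p-values measure the spread between these libraries, which may be technical. Depth per library is unknown, since the files hold FPKM without counts.

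Vessels grow into the neural tube as sprouts, and the endothelial cells at their tips are guided by ligands made in the surrounding tissue. Ligands of the VEGF family act on 3 receptor tyrosine kinases, of which Kdr (VEGFR2) carries most of the sprouting signal of Vegfa, Flt1 (VEGFR1) binds Vegfa, Vegfb and Pgf, and Flt4 (VEGFR3) binds Vegfc. Angiopoietins act on the endothelial kinase Tek (Tie2): Angpt1, largely from perivascular cells, activates it and stabilises vessels, while Angpt2, from endothelial cells, can oppose this. Apelin (Apln) is a peptide of sprouting endothelium that acts on the G protein-coupled receptor Aplnr, and Dll4 is the Notch ligand through which tip cells restrain their neighbours.

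The targeted gene and the makeup of the libraries were examined first. Smn1 was listed at 10.4, 8.64 and 11.9 FPKM in the control libraries and at 8.48, 9.30 and 11.1 FPKM in the SMA libraries. The groups overlapped, so a gene-level FPKM of Smn1 did not separate the genotypes and the group labels could not be checked by it; which exons the deleted allele lacks is not given in the labels. Neuronal and glial markers were abundant in every library, as for Meg3 (675 to 978 FPKM), Stmn2 (235 to 468 FPKM) and Mbp (375 to 695 FPKM). By sign, 7 of 9 neuronal genes tested were higher in SMA (median 0.29, against 0.04 over all genes), and 3 lay above every control (10.3% of all genes). Of 5 oligodendrocyte genes, 5 were lower (median -0.31). Of 7 astrocyte genes 4 were higher and 3 lower (median 0.14), and of 5 microglia genes 4 were lower and 1 higher (median -0.10). The share of all genes by sign was not computed. Without control replicate 2, described next, 6 of 9 neuronal genes were higher (median 0.05, against 0.00155 over all genes) and 5 of 5 oligodendrocyte genes lower (median -0.45). The astrocyte list then had 4 higher and 3 lower (median 0.03), and the microglia list 3 higher and 2 lower (median 0.10). By unadjusted limma p, 0 neuronal, oligodendrocyte or microglia genes passed with all libraries and 1 astrocyte gene was higher (2.39% of all genes lower, 3.4% higher). Without control replicate 2, 1 neuronal gene was lower, 2 were higher and 2 oligodendrocyte genes were lower. In that fit 1 astrocyte gene was lower and 1 higher (5.2% of all genes lower, 5.27% higher).

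Control replicate 2 stood apart from the other 5 libraries. Its log2(FPKM + 1) values correlated with theirs across genes at r between 0.836 and 0.849, against 0.983 to 0.992 among the other 5; genes are not independent replicates, and these are descriptions. All 13 genes of a hepatocyte list were higher in it, led by Alb, the serum albumin gene of liver, at 15895 FPKM against 24.6 to 56.2 FPKM elsewhere. The hepatocyte list held 7.26% of the summed FPKM of control replicate 2 and 0.0130% to 0.0291% of the other libraries. An erythroid list, led by the haemoglobin gene Hbb-bs, held 4.55% of it against 0.304% to 0.516%. Markers of liver sinusoidal endothelium summed to 64.5 FPKM in it and to 4.70 to 8.54 FPKM elsewhere, and their defining gene Stab2, a scavenger receptor, was at 19.1 FPKM against 0.0706 to 0.224 FPKM. The tissue of these libraries is labelled as spinal cord only. Differences between the groups are therefore also given without control replicate 2.

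**Figure D1:**
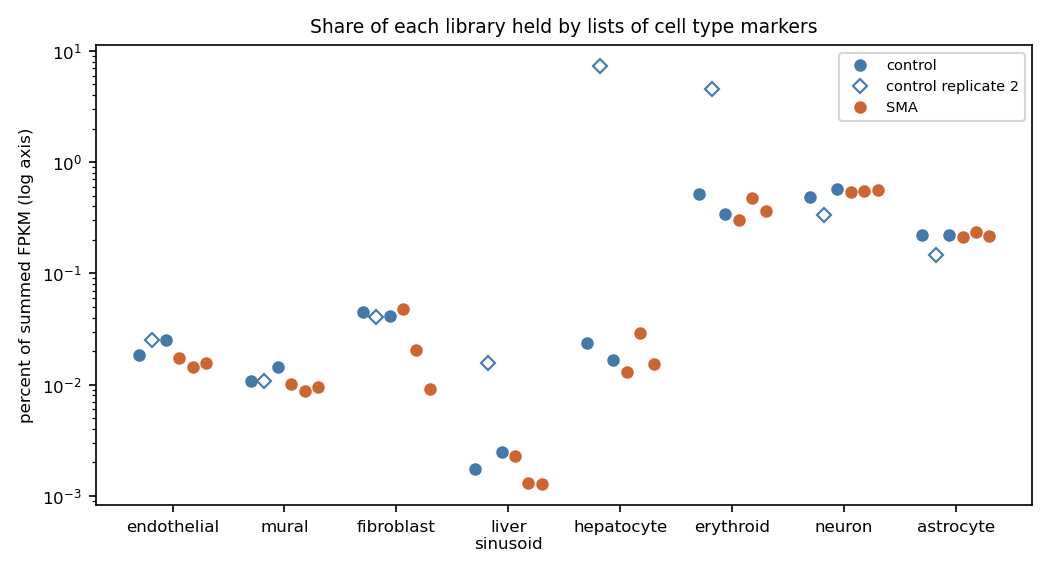
Percent of the summed FPKM (vertical log axis) held by 8 lists of cell type markers in each of the 6 libraries; filled circles are control and SMA libraries in replicate order, the open diamond is control replicate 2. The diamond lies far above the other libraries for the hepatocyte list (7.26%), the erythroid list (4.55%) and the liver sinusoid list, while the SMA libraries lie below all controls for the endothelial and mural lists.

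This library also stood apart for some of the angiogenic genes, being high for Flt4, Vegfc and Vegfa and low for Apln and Angpt2, while for Aplnr and Angpt1 it lay between the other controls. Relative to the mean of the other 5 libraries, its FPKM was 3.25 times as high for Flt4, 1.88 times for Vegfc, 1.82 times for Vegfa, 1.41 times for Aplnr, 1.31 times for Dll4 and 1.14 times for Angpt1. It was 0.858 times as high for Vegfb, 0.777 times for Pgf, 0.544 times for Angpt2 and 0.522 times for Apln. The part of liver RNA in these values was not tested.

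Over the 6 libraries, the level ran from 21.8 FPKM for Vegfb and 16.7 FPKM for Vegfa, through 8.71 FPKM for Aplnr, 3.22 FPKM for Apln, 2.21 FPKM for Angpt1, 1.74 FPKM for Dll4, 1.40 FPKM for Flt4, 1.37 FPKM for Vegfc and 1.03 FPKM for Pgf, to 0.565 FPKM for Angpt2. FPKM is scaled by transcript length, so these levels can be set beside each other. Neighbours in this order overlapped in their ranges over libraries, with 2 exceptions: the lowest Aplnr value (4.96 FPKM) lay above the highest Apln value (4.50 FPKM), and the lowest Pgf value (0.828 FPKM) lay above the highest Angpt2 value (0.763 FPKM). Vegfb, a ligand of Flt1, was thus the most abundant ligand by its mean, and it stood at the 79.6th percentile of the genes tested. It was also the steadiest of the 10 by relative spread, with a coefficient of variation of 9.45% over the libraries, against 68.8% for Flt4. The Flt4 value includes 3.31 FPKM in control replicate 2, against 0.605 to 1.27 FPKM elsewhere. The coefficient without that library was not computed. The order of means also depends on that library. Over the other 5 libraries Vegfc was at 1.19 FPKM, Pgf at 1.07 FPKM and Flt4 at 1.02 FPKM, so that Flt4 fell below both.

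Among the 10 genes, the lowest p for a difference between SMA and control belonged to the apelin receptor. Aplnr, found on venous and sprouting endothelium, was at 9.18, 11.5 and 13.4 FPKM in the control libraries and at 6.65, 6.61 and 4.96 FPKM in the SMA libraries. Every SMA library lay below every control, and the group means were 11.4 ± 2.10 and 6.07 ± 0.964 FPKM (SD, n = 3 each). The difference on the log2(FPKM + 1) scale was -0.80 (SE 0.168, 95% interval -1.20 to -0.40; limma adjusted p = 0.683 over all genes, exact two-sided permutation p = 0.1). Aplnr was below an unadjusted limma p of 0.05, the level at which genes are counted as lower or higher here. Without control replicate 2 the difference was -0.78 (limma adjusted p = 0.296), and with each library left out in turn it ran from -0.93 to -0.68 and stayed below that level. In bulk tissue, fewer cells of a type and less RNA per cell cannot be told apart. Aplnr (ENSMUSG00000044338) lies on chromosome 2 from 85136225 to 85139923, plus strand, in mm10 (GRCm38), and no other annotated gene overlaps it.

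Its ligand differed in the other direction, less firmly. Apln (ENSMUSG00000037010; chromosome X, 48025146 to 48034853, minus strand) was at 3.38, 1.83 and 2.27 FPKM in the control libraries and at 4.10, 3.24 and 4.50 FPKM in the SMA libraries. The groups overlapped, because control replicate 1 lay above SMA replicate 2. The log2 difference was 0.52 (SE 0.197, 95% interval 0.05 to 0.99; limma adjusted p = 0.683, exact permutation p = 0.2), below an unadjusted limma p of 0.05. It was no longer below that level without control replicate 2 (0.38), without control replicate 3 (0.48), without SMA replicate 1 (0.49), without SMA replicate 3 (0.44) or with no filter on low FPKM. Apela, the other ligand of Aplnr, was low, from 0.392 to 1.35 FPKM, and its log2 difference was -0.04 (exact permutation p = 0.7). This was -0.27 without control replicate 2, and it turned to 0.11, 0.03 and 0.16 without control replicate 1, control replicate 3 and SMA replicate 3.

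Within a library, the FPKM of Apln relative to Aplnr does not depend on how the library was scaled. This ratio was 0.368, 0.159 and 0.170 in the control libraries and 0.617, 0.490 and 0.907 in the SMA libraries, so that every SMA library lay above every control. The difference in log2 ratio was 1.60 (control -2.22 ± 0.674, SMA -0.62 ± 0.449, SD, n = 3 each; exact two-sided permutation p = 0.1, adjusted to 0.3 over the 6 ratios computed). A p of 0.1 is the smallest that 3 libraries against 3 allow, so no ratio could pass 0.05. Without control replicate 2 the difference was 1.38. The ratio joins the differences of Apln and Aplnr given above and is not separate support for either.

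The sequence before the start of Apln is given here, together with those of the endothelial kinases Kdr and Tek, whose levels were lower in SMA and are described after the ligands. Of the 10 genes, 7 matched the RefSeq promoter table (GRCm38.p6) with 9 start sites; Angpt1, Angpt2 and Aplnr did not. Each run gives the 250 bases before the RefSeq start, 5′ to 3′ on the strand of the gene, and capitals mark ACGTG (the core of the hypoxia response element), TGGGAA (the core bound by the Notch factor Rbpj) or AGGAAG (a core bound by ETS factors), on either strand. Bases shared by overlapping matches are marked once.
Apln, chrX:48034854-48035103, minus strand: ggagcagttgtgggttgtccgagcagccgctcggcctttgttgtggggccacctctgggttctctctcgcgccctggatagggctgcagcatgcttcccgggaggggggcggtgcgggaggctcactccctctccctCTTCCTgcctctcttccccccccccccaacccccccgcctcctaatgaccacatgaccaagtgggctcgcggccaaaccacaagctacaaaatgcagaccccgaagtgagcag
Kdr, chr5:75978456-75978705, minus strand: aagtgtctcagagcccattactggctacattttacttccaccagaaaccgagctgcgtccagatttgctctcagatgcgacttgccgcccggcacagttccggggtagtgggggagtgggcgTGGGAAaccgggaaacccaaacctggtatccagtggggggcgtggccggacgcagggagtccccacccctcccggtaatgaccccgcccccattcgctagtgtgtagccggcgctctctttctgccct
Tek, chr4:94739039-94739288, plus strand: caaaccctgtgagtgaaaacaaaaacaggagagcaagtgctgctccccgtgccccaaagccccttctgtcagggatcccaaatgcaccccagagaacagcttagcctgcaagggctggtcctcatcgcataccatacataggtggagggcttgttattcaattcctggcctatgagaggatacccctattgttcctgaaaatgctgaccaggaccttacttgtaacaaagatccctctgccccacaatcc
The Apln run held 1 AGGAAG match, read as CTTCCT, starting at position -113 from the start, the Kdr run held 1 TGGGAA match at -128, and the Tek run held none of the 3 motifs. Among the 9 windows of the 7 matched genes, 1 held ACGTG, 2 held TGGGAA and 1 held AGGAAG. The ACGTG window and both TGGGAA windows were those of Vegfa. For neither Vegfa window were the bases just after the start found in an annotated Vegfa transcript. The window with ACGTG lay with all 250 bases inside the annotated gene, so it may not be a promoter. Of all 32851 promoters in the table, 16.6% held ACGTG, 21.6% held TGGGAA and 29.5% held AGGAAG in the same 250 bases. A match is a stretch of letters and not a measured binding site.

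The ligands of the VEGF family showed no difference at an unadjusted p under 0.05 over the 6 libraries. Vegfa, the main angiogenic ligand, was at 13.1, 26.8 and 16.8 FPKM in the control libraries and at 15.7, 12.7 and 15.1 FPKM in the SMA libraries. Its highest value belonged to control replicate 2, and the remaining libraries of the groups overlapped. The log2 difference of Vegfa was -0.31 (SE 0.246, exact permutation p = 0.4), and it was -0.04 without that library (95% interval -0.33 to 0.26). Without control replicate 1 the difference of Vegfa was -0.52. Vegfb, at 19.2 to 24.2 FPKM in all libraries, differed by 0.09 (95% interval -0.18 to 0.37). It differed by 0.03 without control replicate 2 and by 0.19 without SMA replicate 2. Pgf, at 0.828 to 1.17 FPKM, differed by -0.03 (95% interval -0.40 to 0.35), and by -0.11 without control replicate 2. The sign for Pgf turned under quantile normalization and without control replicate 1, control replicate 3 or SMA replicate 2. Vegfc, the lymphangiogenic ligand, ranged from 0.941 to 2.25 FPKM and differed by -0.29 (exact permutation p = 0.3), and by -0.13 without control replicate 2. It was below an unadjusted limma p of 0.05 with a single library left out, control replicate 3 (-0.49).

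Flt4, the receptor of Vegfc, was at 1.06, 3.31 and 1.27 FPKM in the control libraries and at 1.16, 0.989 and 0.605 FPKM in the SMA libraries. The value of 3.31 FPKM belonged to control replicate 2, and SMA replicate 1 lay between the other controls. The log2 difference was -0.52 (SE 0.307; exact permutation p = 0.2) and -0.18 without control replicate 2. The FPKM of Vegfc relative to Flt4 overlapped between the groups (difference in log2 ratio 0.40, exact permutation p = 0.4). That difference was 0.17 without control replicate 2 and 0.79 without control replicate 1. Flt4 also marks lymphatic and liver sinusoidal endothelium, whose list sums are given above for the liver type. The sum of a lymphatic list of 4 genes was 14.2, 21.5 and 12.5 FPKM in control and 14.2, 13.9 and 12.1 FPKM in SMA. Most of it was Prox1, which neural progenitors also express. Prox1 was at 15.1 FPKM in control replicate 2 against 7.56 to 9.97 FPKM elsewhere. Lyve1, which is also on the liver sinusoid list, was at 3.71 FPKM against 0.487 to 1.35 FPKM. The part of liver RNA in this sum was not tested. The genes of the lymphatic list did not move together. Ccl21a differed by -0.90 and Prox1 by -0.05, or by -0.89 and 0.23 without control replicate 2. By unadjusted limma p, Ccl21a was lower in both fits (2.39% and 5.2% of all genes) and Prox1 higher in the latter (5.27% of all genes). The mean of Ccl21a was 1.22 FPKM in control and 0.190 FPKM in SMA, the latter below the minimum of 0.5 FPKM. Ccl21a thus passed the filter through the control libraries, and no conclusion is drawn from its call.

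The angiopoietins were low. Angpt1 ranged from 1.78 to 2.70 FPKM and differed by -0.09 (95% interval -0.48 to 0.30), and by -0.06 without control replicate 2. The difference was -0.21 without control replicate 3 and -0.0096 without control replicate 1. Angpt2 was at 0.611, 0.333 and 0.418 FPKM in the control libraries and at 0.763, 0.686 and 0.581 FPKM in the SMA libraries. Control replicate 1 lay above SMA replicate 3, so the groups overlapped, and the log2 difference was 0.21 (SE 0.172; exact permutation p = 0.2), or 0.15 without control replicate 2. The ratio of Angpt2 to Angpt1 was 0.226, 0.135 and 0.232 in control and 0.428, 0.279 and 0.281 in SMA. All SMA libraries lay above all controls for this ratio, with a difference in log2 ratio of 0.75 (exact permutation p = 0.1, adjusted p = 0.3), which was 0.49 without control replicate 2 and 0.54 without SMA replicate 1. The mean of Angpt2 was 0.454 FPKM in control, below the minimum of 0.5 FPKM, and 0.677 FPKM in SMA, so Angpt2 passed the filter through the SMA libraries; the ratio itself used no filter. Angpt2 lies within Mcph1 on the opposite strand (mean 6.19 FPKM, 0 shared exonic bases), and its span in the files, 18595131 to 18803189 on chromosome 8, is wider than the 18690263 to 18741562 of the annotation. Whether the authors' quantification used strand is not stated, so reads of Mcph1 cannot be told apart from those of Angpt2.

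Dll4, the Notch ligand of tip and arterial cells, was at 1.09, 2.16 and 2.08 FPKM in control and at 1.93, 1.41 and 1.77 FPKM in SMA. The groups overlapped in full, with a log2 difference of -0.02 (95% interval -0.50 to 0.47), whose sign turned under quantile normalization and without control replicate 2 (0.09), control replicate 3 or SMA replicate 2. The ratio of Dll4 to the endothelial Notch receptor Notch4 differed by 0.20 on the log2 scale (exact permutation p = 0.5), and by 0.10 without control replicate 2. It differed by 0.36 without control replicate 3, by 0.37 without SMA replicate 1 and by 0.06 without SMA replicate 3. Another 9 Notch genes included the receptors Notch1 and Notch4, the ligands Jag1 and Dll1 and the target genes Hey1, Hey2, Hes1 and Nrarp. Of these 9, 0 were lower and 0 higher by the same limma level (2.39% and 3.4% of all genes). With so few genes, a count of 0 lies near these shares. The median difference of the 9 genes was -0.03 against 0.04 over all genes, and -0.06 against 0.00155 without control replicate 2. The counts were again 0 in that fit (5.2% and 5.27% of all genes). Without control replicate 1, Hes1 was lower by that level (-0.47), as were 573 genes over all genes. Notch1 (18.7 FPKM), Hey1 (11.9 FPKM) and Hey2 (9.20 FPKM) had means above the 1.74 FPKM of Dll4. Which cells make these transcripts cannot be told in bulk tissue, so the counts do not describe endothelial cells alone.

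**Figure D2:**
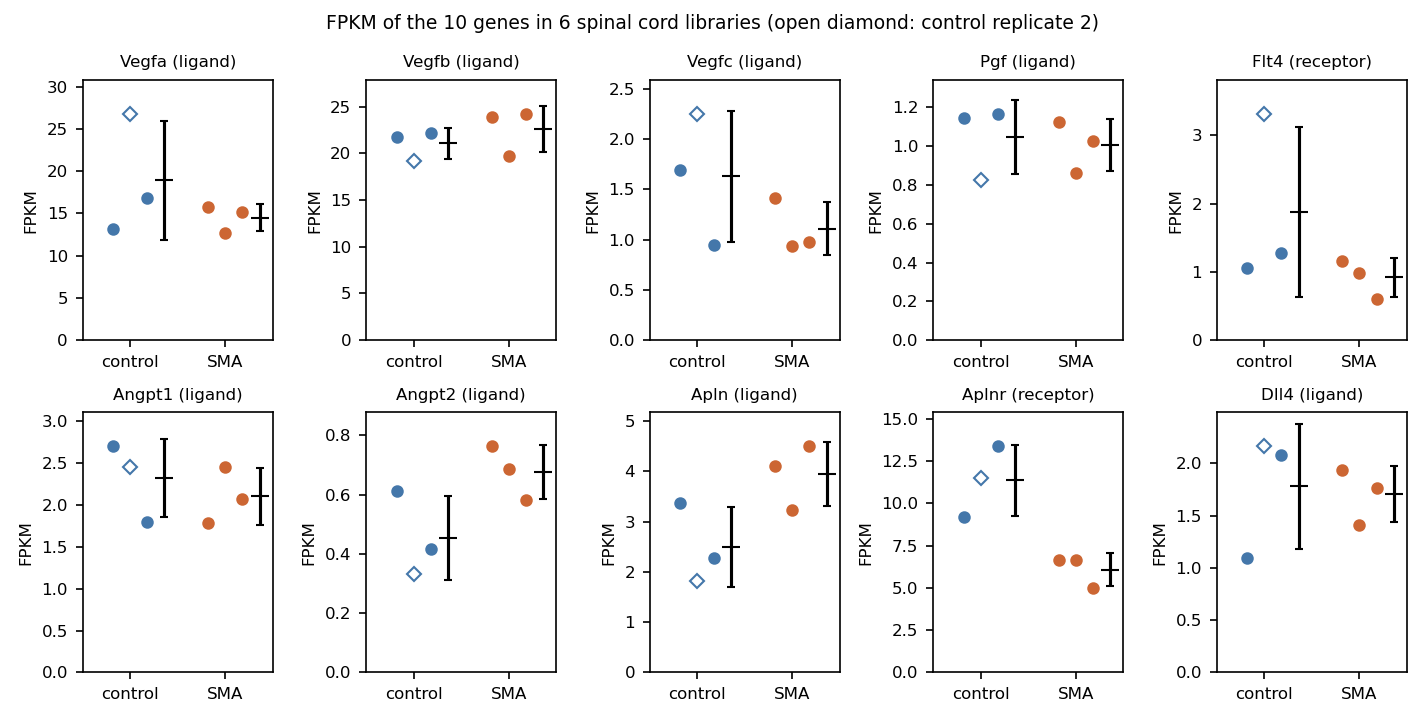
FPKM (vertical axis, from 0) of the 10 genes in the 3 control and 3 SMA libraries, with the mean and SD of each group in black; the open diamond is control replicate 2. The Aplnr panel is the only 1 of the 10 in which every SMA library (4.96 to 6.65 FPKM) lies below every control (9.18 to 13.4 FPKM), and the diamond is the highest point for Vegfa, Vegfc, Flt4 and Dll4.

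Over the 6 libraries, 1 of the 10 genes (Aplnr) was lower in SMA at an unadjusted p under 0.05, where 2.39% of the 17088 genes tested were, and 1 (Apln) was higher, where 3.4% were. By adjusted p, 0 of the 10 genes and 0 of all genes (0%) passed 0.05 in limma, while 409 genes were lower and 581 higher by unadjusted limma p at that level. That split moved to 565 lower and 528 higher with median ratio scaling and to 386 lower and 338 higher with equal summed FPKM. With a fold over 2 added to the unadjusted p, 0 of the 10 passed, against 0.17% of all genes. Every SMA library lay below every control for 1 of the 10 (6.67% of all genes) and above for 0 of the 10 (10.3% of all genes). Against the controls left without control replicate 2, all SMA libraries lay below for 2 of the 10 (Aplnr and Pgf) and above for 0. The share of all genes was not computed for that case. Without control replicate 2, 1 of the 10 (Aplnr) was lower at an unadjusted p under 0.05 (5.2% of 16574 genes) and 0 were higher (5.27%), while 0 of the 10 and 2 of all genes (0.0121%) passed by adjusted p. The 10 genes had a median log2 difference of -0.06 against 0.04 over all genes, and of -0.05 against 0.00155 without control replicate 2. The 10 genes were not tested as a set.

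Receptors and regulators on which these ligands act were read beside them. Of 5 other genes of the VEGF branch, Figf (Vegfd) was below the minimum of 0.5 FPKM. Of the 4 tested, Kdr was lower in SMA at an unadjusted p under 0.05 (2.39% of all genes), while Flt1, Nrp1 and Nrp2 were not. Without control replicate 2, Kdr was again the only 1 lower (5.2% of all genes). Kdr was at 9.01, 14.3 and 11.0 FPKM in control and at 8.83, 6.36 and 7.43 FPKM in SMA. The groups did not overlap, although control replicate 1 and SMA replicate 1 were close. The log2 difference of Kdr was -0.53 (SE 0.186; limma adjusted p = 0.683, exact permutation p = 0.1), and -0.37 without control replicate 2. It missed an unadjusted limma p of 0.05 without control replicate 3 (-0.55), without SMA replicate 2 (-0.43) and without SMA replicate 3 (-0.53). The co-receptors Nrp1 and Nrp2, which neurons also express, differed by 0.11 each, and Flt1 by -0.12; without control replicate 2 these were 0.03, -0.02 and -0.09.

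Of 4 other genes of the angiopoietin branch, Angpt4 was below the minimum. Of the 3 tested, the kinases Tek and Tie1 were lower (2.39% of all genes), while the phosphatase Ptprb, which acts on Tek, was not. Without control replicate 2 the same 2 were lower (5.2% of all genes). Tek, the angiopoietin receptor, was at 2.41, 5.33 and 3.95 FPKM in control and at 2.00, 1.64 and 1.14 FPKM in SMA, with no overlap. Its log2 difference was -0.88 (SE 0.254; limma adjusted p = 0.683, exact permutation p = 0.1), and -0.68 without control replicate 2. Tie1, its partner kinase, was at 2.59, 3.79 and 3.90 FPKM in control and at 2.21, 1.47 and 1.61 FPKM in SMA, again with no overlap. The log2 difference of Tie1 was -0.68 (SE 0.181; limma adjusted p = 0.683, exact permutation p = 0.1), and -0.61 without control replicate 2. Both kinases stayed below an unadjusted limma p of 0.05 with each library left out in turn. Ptprb differed by -0.46 (exact permutation p = 0.2), and by -0.20 without control replicate 2. Without control replicate 1 it differed by -0.70 and was lower by the limma level, as were Tek and Tie1 (573 genes lower over all genes).

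**Figure D3:**
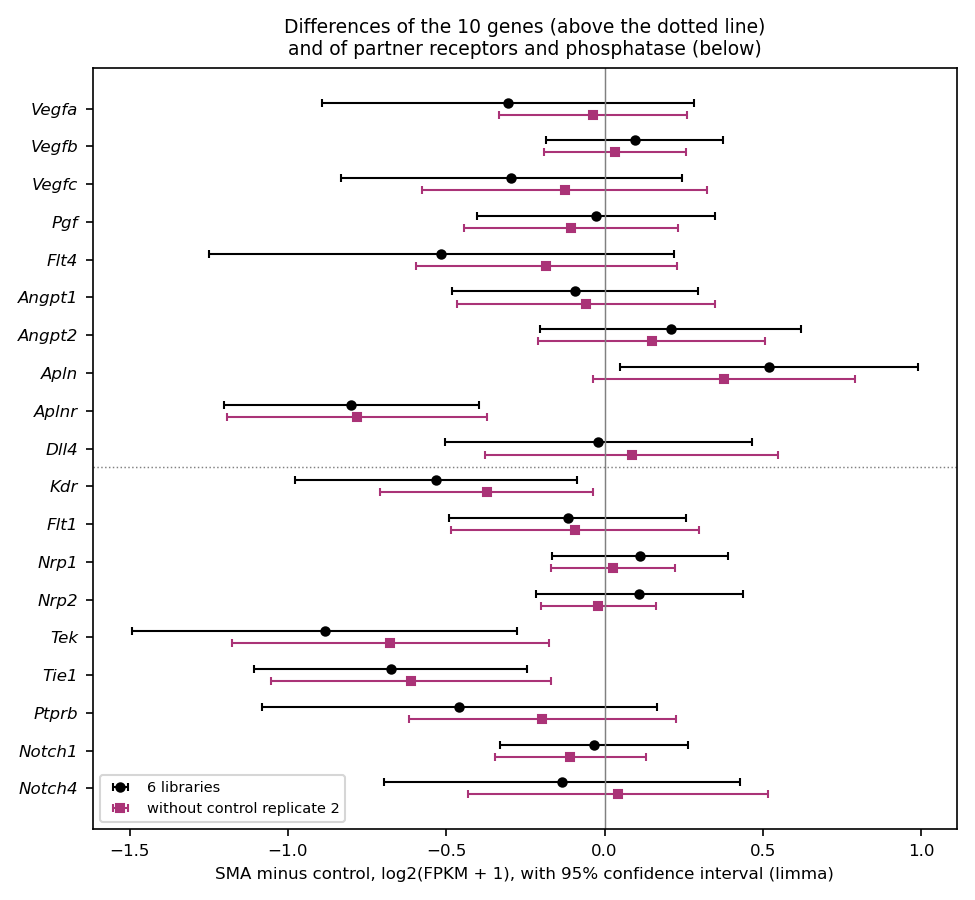
Difference between SMA and control on the log2(FPKM + 1) scale (horizontal axis) with its 95% confidence interval from limma, for the 10 genes above the dotted line and 9 receptors and regulators below it; circles are the fit to 6 libraries, squares the fit without control replicate 2. The intervals of Aplnr, Kdr, Tek and Tie1 lie below 0 in both fits, and that of Apln lies above 0 with 6 libraries only.

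Tip cell markers and inhibitors of angiogenesis did not pass in either direction over the 6 libraries. Of 5 tip cell genes, Esm1 and Kcne3 were below 0.5 FPKM. Of the remaining 3 (Pdgfb, Nid2 and Unc5b), 0 were lower or higher over the 6 libraries (2.39% and 3.4% of all genes). The counts were again 0 without control replicate 2 (5.2% and 5.27% of all genes). Without SMA replicate 1, 1 was lower (306 genes lower over all genes). Of 5 inhibitors, 0 were lower or higher with or without control replicate 2, beside the same shares of all genes. With so few genes, a count of 0 lies near these shares. Serpinf1, which encodes the inhibitor PEDF, was at 75.5 FPKM in control replicate 2 and at 3.58 to 6.24 FPKM elsewhere, and Col18a1, the source of endostatin, was at 59.0 FPKM against 2.58 to 8.99 FPKM. The secreted inhibitors Thbs1 and Thbs2 and the endothelial inhibitor Vash1 differed by -0.36, -0.11 and 0.08, and by 0.02, 0.03 and -0.09 without control replicate 2. Serpinf1 differed by -0.94 and Col18a1 by -1.37 with all libraries, and by 0.40 and -0.36 without that library. For Serpinf1 every SMA library then lay above both remaining controls, a case for which the share of all genes was not computed.

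Endothelial markers were read next, since several of the receptors are made by endothelial cells. A list of 14 endothelial genes summed to 67.0, 104 and 86.8 FPKM in the control libraries and to 63.6, 52.9 and 57.7 FPKM in the SMA libraries, with Cldn5, the tight junction claudin, the most abundant. The groups did not overlap, although control replicate 1 and SMA replicate 1 lay close together. By unadjusted limma p, 5 of the 14 were lower (2.39% of all genes) and 0 were higher (3.4% of all genes), and the median log2 difference was -0.46 against 0.04 over all genes. The 5 were Cldn5, Pecam1, Emcn, Ecscr and Sox17, of which all but Cldn5 were named after their values were seen. Cldn5 differed by -0.58 (limma adjusted p = 0.683, exact permutation p = 0.1), whereas the abundant endothelial genes Egfl7 and Eng differed by -0.39 (exact permutation p = 0.5) and -0.14 (exact permutation p = 0.7), or -0.05 and 0.06 without control replicate 2. Without control replicate 2, 5 were again lower by this level (5.2% of all genes), with a median of -0.27, and by sign alone 10 were lower and 4 higher, against 13 and 1 with all libraries. The count was 9 without control replicate 1, 3 without SMA replicate 2 and 1 without SMA replicate 3, and over all genes 573, 142 and 125 were lower in these fits, against 409 with all libraries. The part of endothelial content in the lower values of Kdr, Tek and Tie1 was not tested.

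For 4 of the genes that endothelial cells are known to express, the level was taken relative to the mean log2(FPKM + 1) of the 14 endothelial markers in the same library. That mean was 2.13, 2.76 and 2.48 in control and 2.18, 1.94 and 2.02 in SMA, a difference of -0.41. The groups overlapped on this mean, with SMA replicate 1 above control replicate 1, and the difference was -0.26 without control replicate 2. Aplnr exceeded it by 1.22, 0.89 and 1.36 in the control libraries and by 0.76, 0.98 and 0.56 in the SMA libraries. The groups overlapped by control replicate 2, and the difference in the relative value was -0.39 (exact permutation p = 0.2, adjusted over 4 genes to 0.267), or -0.52 without that library. Dll4 lay below the marker mean by less in SMA, at -1.07, -1.09 and -0.86 in control and -0.63, -0.67 and -0.55 in SMA. The groups did not overlap, and the relative difference was 0.39 (exact permutation p = 0.1, adjusted p = 0.2), or 0.35 without control replicate 2. Dll4 itself differed by -0.02, so that this value is nearly the difference of the marker mean. The relative value of Angpt2 was higher in SMA by 0.62 (exact permutation p = 0.1, adjusted p = 0.2), by 0.41 without control replicate 2, and by 1.04 with a pseudocount of 0.1. Of the 0.62, 0.21 is the difference of Angpt2 itself, whose groups overlap, and 0.41 that of the marker mean; the reads of Mcph1 bear on this value too. The relative value of Flt4 differed by -0.11 (exact permutation p = 0.7) and by 0.08 without control replicate 2.

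The 6 ratios of ligand to receptor, or between ligands, were compared by whether the groups overlapped. Angpt2 to Angpt1 and Apln to Aplnr did not overlap between the groups, and Vegfc to Flt4, Vegfa to Kdr, Pgf to Flt1 and Dll4 to Notch4 did. How often ratios of other genes separate the groups was not computed. Apln was already counted as higher and Aplnr as lower, so the separation of their ratio follows in part from those differences. Angpt2 and Angpt1 each overlapped between the groups, and the control mean of Angpt2 was 0.454 FPKM. The ratio of Vegfa to Kdr was 1.46, 1.87 and 1.52 in control and 1.78, 2.00 and 2.04 in SMA, where control replicate 2 lay among the SMA libraries. Its difference in log2 ratio was 0.27 (exact permutation p = 0.2, adjusted p = 0.4), and 0.38 without that library. The ratio of Pgf to Flt1 differed by 0.09 (exact permutation p = 0.9) and by -0.09 without control replicate 2.

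**Figure D4:**
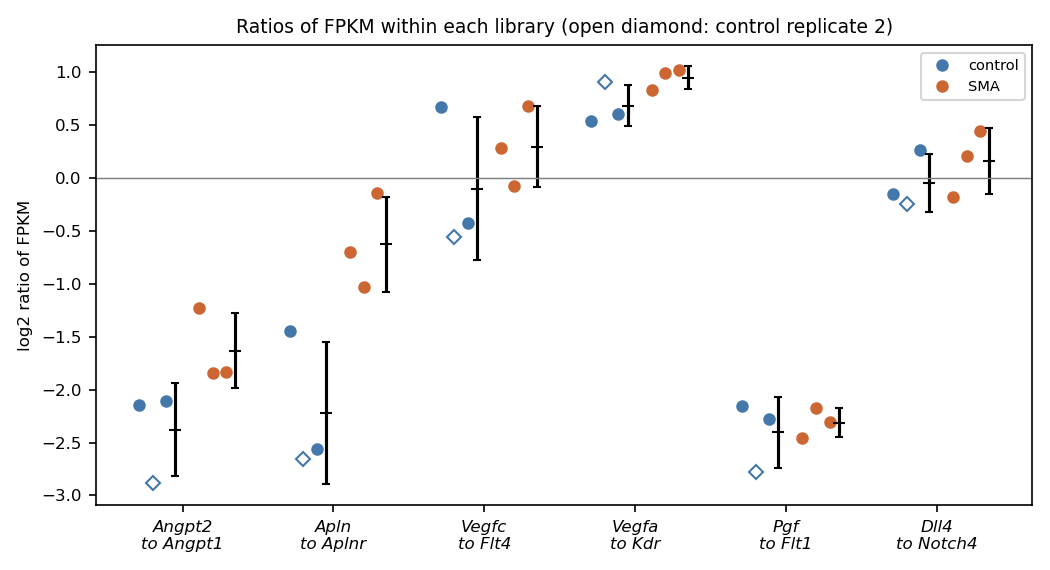
Log2 ratio of FPKM between 2 genes of the same library (vertical axis) for 6 pairs, with the mean and SD of each group in black; the open diamond is control replicate 2. The SMA libraries lie above all controls for Angpt2 to Angpt1 and for Apln to Aplnr, where the group means are -2.22 and -0.62.

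Perivascular cells make Angpt1, and fibroblasts of the meninges add further angiogenic signals, so their markers were read as well. A list of 8 pericyte and smooth muscle genes, led by Rgs5, summed to 38.7, 44.6 and 50.2 FPKM in control and to 37.0, 32.2 and 35.0 FPKM in SMA. The SMA libraries lay below the controls, and of the 7 genes tested 3 were lower (Rgs5, Abcc9 and, named after its values were seen, Acta2) and 0 higher at an unadjusted p under 0.05 (2.39% and 3.4% of all genes). The count lower was 2 without control replicate 2 (5.2% of all genes), 1 without control replicate 3 (712 genes lower over all genes) and 0 without SMA replicate 2 or SMA replicate 3 (142 and 125 genes). Cspg4, also among the 3 most abundant genes of this list, differed by 0.18, and by 0.04 without control replicate 2. By sign alone, 6 of the 7 were lower and 1 higher, or 5 lower and 2 higher without control replicate 2. A fibroblast list led by Col1a2 summed to 161, 168 and 145 FPKM in control and to 176, 74.8 and 33.7 FPKM in SMA. SMA replicates 2 and 3 were thus low in fibroblast genes while SMA replicate 1 was as high as the controls. In the same order of SMA libraries Aplnr was at 6.65, 6.61 and 4.96 FPKM, and the part of fibroblast content in it was not tested.

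Hypoxia raises Vegfa, Apln and Angpt2 in many tissues, and a list of 12 hypoxia-responsive genes was set beside them. Of the 10 tested, 3 were lower (Bnip3, Egln3 and P4ha1) and 1 higher (Ddit4) at an unadjusted p under 0.05 (2.39% and 3.4% of all genes), and the median log2 difference was -0.17; without control replicate 2 the counts were the same, beside 5.2% and 5.27% of all genes, and the median was -0.12. Of these 4, Bnip3 was named for its level, and the others were named after their values were seen. With equal summed FPKM, 0 of the 10 were lower or higher (386 and 338 over all genes). Without SMA replicate 2, 11 genes of the list were tested and 0 were lower or higher (142 and 255 over all genes). Quantile normalization gave 1 lower and 1 higher of 10 (337 and 639 over all genes). The fits without SMA replicate 1 or SMA replicate 3 gave 1 lower and 0 higher of 11 each. Over all genes these fits gave 306 and 238, and 125 and 214. Without control replicate 1 or control replicate 3, 2 of 11 were lower and 1 higher in each fit. Over all genes these fits gave 573 and 1032, and 712 and 1040. The most abundant, Ldha and Pgk1, differed by -0.45 and -0.03, or by -0.02 and -0.05 without control replicate 2, and Ldha was at 289 FPKM in control replicate 2 against 109 to 122 FPKM elsewhere.

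The genes most like Vegfa, Flt4 and Aplnr over the 6 libraries were found by the root mean square difference of log2(FPKM + 1) centred on each gene's mean. They were picked for their profile over these libraries, so the features they share with each gene follow from the choice. For Vegfa these were Tesk2 (0.0503), Nudt7 (0.0555) and Dysf (0.0568), and for Flt4 they were Ccdc80 (0.0529), Insc (0.0595) and Ypel4 (0.0628). All 6 had their highest FPKM in control replicate 2. For Aplnr they were Rhoc (0.0704), Ccl21a (0.133) and Engase (0.149), and each of these was lower in all SMA libraries than in all controls. Ccl21a, a chemokine of lymphatic endothelium, was at 0.904, 1.23 and 1.51 FPKM in control and at 0.422, 0.0841 and 0.0624 FPKM in SMA.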

How the data were processed

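Spinal cord RNA was depleted of ribosomal RNA and made into strand-specific libraries. Per the submitters' processing notes, the authors used HISAT2 and Cufflinks with mm10; versions, annotation and use of strand are not given in the sources used here. The deposited values are FPKM per gene; no counts, so depth is unknown. A gene absent from a file was set to 0. Groups came from the sample labels. FPKM was transformed as log2(FPKM + 1), genes averaging 0.5 FPKM or more were kept, and limma 3.58.1 (R 4.3.3, trend) was fitted, with Benjamini-Hochberg adjustment over all genes; the script was tested on simulated data. Ratios used exact two-sided permutation tests (Python 3.11.15). Named genes were the 10 genes, the genes of the pathway lists, Smn1, up to 3 most abundant genes of each other list, and the 3 genes most like Vegfa, Flt4 and Aplnr. Mcph1 was named for its overlap with Angpt2. Further genes are marked in the text as named after their values were seen. The members and lists were chosen with earlier results of these data known. Loci were compared with GENCODE M21. Other pseudocounts, filters and scalings, a block and left-out libraries were tried.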

Additional observations from a re-analysis of the deposited data

How the results depend on the processing

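Of 139 differences of the 10 genes under other settings, 123 kept their direction and their side of an unadjusted p of 0.05, 6 (all Apln) lost it, 1 (Vegfc) gained it and 9 turned sign. Under no filter, a minimum mean of 1 FPKM or a replicate block only the p can change, so no sign could turn there. The sign turned for Pgf under quantile normalization (0.0419; from -0.11 to 0.0250 with a library left out) and for Dll4 under quantile normalization (0.0707), without control replicate 2 and with median ratio scaling together, a setting chosen after seeing the data (0.0839), and with a library left out (-0.21 to 0.0866). The log2 ratio of Pgf to Flt1 ran from -0.0943 to 0.22 and Flt4 relative to endothelial markers from -0.25 to 0.0750 with a library left out. The count of the 10 genes lower at an unadjusted p under 0.05 ran from 1 to 2 with a library left out, and that of genes higher from 0 to 1, with 0 under no filter and 0 under the added setting. Over all genes, the count lower ran from 125 to 862 with a library left out and was 897 under the added setting. The count higher ran from 214 to 1040, and was 882 with no filter and 338 with equal summed FPKM. By adjusted p, 0 to 2 genes passed with a library left out and 1 under the added setting. The cause of these changes was not tested.

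Deviations of same-numbered libraries from their group means correlated at -0.037, 0.0161 and 0.0766, against -0.0554 to 0.0434 for libraries of different number. The control deviations carry the outlying control replicate 2, so this check cannot exclude a pairing by number. With the number as a replicate block, 303 genes were lower and 356 higher over all genes, and 1 of the 10 genes was lower and 1 higher. Kdr missed an unadjusted limma p of 0.05 in that fit, and 0 hypoxia genes were lower and 1 higher. Depth is unknown, and the size of difference that 3 libraries per group can detect near 1 FPKM was not tested. A minimum mean of 1 FPKM left out Angpt2.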
